A study of Homo sapiens with 8 samples.

Results

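The genes described here are the 49 that encode the DNA replication machinery and the enzymes that make its nucleotides, chosen by symbol, for their role and with earlier results of these data known, from the 58787 Ensembl identifiers of the deposited count table. They were measured by poly(A) RNA-seq in IMR32, an established human neuroblastoma cell line with amplified MYCN, labelled as wild type and as a neuroblast line from brain. Cells were given CR31B, a rocaglate that blocks the RNA helicase eIF4A, at its IC50 for 6 h, or the vehicle, 0.1% DMSO. Each group held 4 libraries, described by the submitters as biological replicates of the 1 cell line. Sequencing was paired-end for replicate 1 of either group and single-end for the remaining 6 libraries. The study asked which genes depend on eIF4A in MYCN-driven neuroblastoma, and these data are RNA levels, not translation.

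In each cell cycle the origin recognition complex marks replication origins and, with CDC6 and CDT1, loads the MCM2-7 helicase onto DNA, while geminin (GMNN) holds CDT1 in check so that origins fire once. CDC45 and the GINS complex then turn the loaded helicase on, DNA polymerase alpha-primase starts each strand, the clamp loader RFC sets the PCNA clamp on DNA, and polymerases delta and epsilon extend. Ribonucleotide reductase, thymidylate synthase and thymidine kinase feed this machine with deoxynucleotides. Many of these genes are transcribed through E2F factors at the G1/S transition, and MYCN-amplified neuroblastoma cells express them strongly.

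Replicate 1 stood apart from its labels across the whole table, and this precedes every result below. The total count per library lay between 43687828 and 64715535. In a chi-square comparison of library counts, the library labelled CR31B replicate 1 differed from the 3 other DMSO libraries by a mean of 9.46 to 17.3 per gene and from the 3 other CR31B libraries by 94.4 to 144. The library labelled DMSO replicate 1 showed the reverse, at 8.01 to 20.7 from CR31B replicates 2 to 4 and 88.8 to 109 from DMSO replicates 2 to 4. Among genes that changed in replicates 2 to 4, 98.9% had the opposite sign in replicate 1. Whether the labels of the 2 replicate 1 libraries were exchanged was not tested, and the labels are used as given. Results are therefore shown for replicates 2 to 4, for replicate 1 apart, and for all 8 libraries as labelled. The 10 adrenergic neuroblast markers were all detected above 1 CPM (read counts scaled to library size, with TMM factors) in at least 1 library, with a summed level of 3052 to 3103 CPM in DMSO replicates 2 to 4 and in the library labelled CR31B replicate 1. The same sum was 4031 to 4384 CPM in the other 4 libraries. HAND2 and GATA3 carried the higher sum, at 661 to 695 and 240 to 275 CPM in the first 4 libraries and 1236 to 1393 and 804 to 932 CPM in the others. The list did not move as one, since PHOX2A (478 to 576 against 387 to 435 CPM), DBH (228 to 348 against 94.7 to 179) and CHGA (345 to 396 against 259 to 321) went the other way. Marker sums of other cell types were 32.2 to 50.1 CPM for 6 fibroblast genes, 2.92 to 8.5 for 4 Schwann cell genes, 0.791 to 2.61 for 3 endothelial genes, 0.345 to 1.09 for 4 leukocyte genes and 0 to 0.292 for 4 epithelial genes. SOX10 and CD3E were at 0 in all libraries. The part of these marker differences in the results was not tested.

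In replicates 2 to 4 the replication genes held both rises and falls, in a division near that of all genes. Of the 49, all of which passed the filter on low counts, 16 rose, 11 fell and 22 did not pass the test (edgeR quasi-likelihood test, two-sided, Benjamini-Hochberg adjusted p below 0.05 over all genes; these are the calls meant by "rose" and "fell"). The background was of the same order, since 41.3% of all 16696 genes tested passed, 23.8% higher and 17.6% lower. These shares also stand behind the counts by role below. Of the calls, 59.3% were higher among the members and 57.5% among all genes. Under upper quartile scaling these were 31.25% and 40.0%. The largest rises were in CDC6, the helicase loader, at 1.61-fold, in POLA2 and ORC1 at 1.46-fold each, and in CHAF1A at 1.32-fold. The largest falls were in RRM2, the small subunit of ribonucleotide reductase, to 0.698 of the DMSO level, in POLD2 to 0.764 and in RFC5 to 0.767. No member changed by 2-fold or more. Of the 16696 genes tested, 447 were called with such a change, a share so small that its absence among 49 genes tells little. The median absolute log2 change of the called members was 0.28, against 0.39 for all called genes. The median over all 49 was 0.04, against -0.01 over all genes tested. In bulk RNA, fewer cells in the phase that transcribes a gene and less RNA per cell cannot be told apart. The division into higher and lower moved with the scaling. Under upper quartile scaling 10 members were higher and 22 lower, where 45.0% of all genes were called, 18.0% higher and 27.0% lower. Under total counts 11 were higher and 21 lower, where 44.2% of all genes were called, 19.1% higher and 25.1% lower. With offsets for GC content and length 13 were higher and 13 lower (39.9% of all genes, 20.1% and 19.9%). Same-numbered libraries deviated together, and with the replicate number as a block 16 were higher and 16 lower (51.1% of all genes, 28.1% and 23.1%). A total of 14 members kept their call under all 17 alternatives. Of them 8 were higher (ORC1, ORC5, CDC6, GMNN, RFC1, RFC4, POLA2 and CHAF1A) and 6 lower (ORC3, CDT1, RFC5, POLD2, RPA3 and RRM2). The alternatives reuse the same libraries. No share of all genes is given for this count, so it cannot be read as particular to the members.

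**Figure D1:**
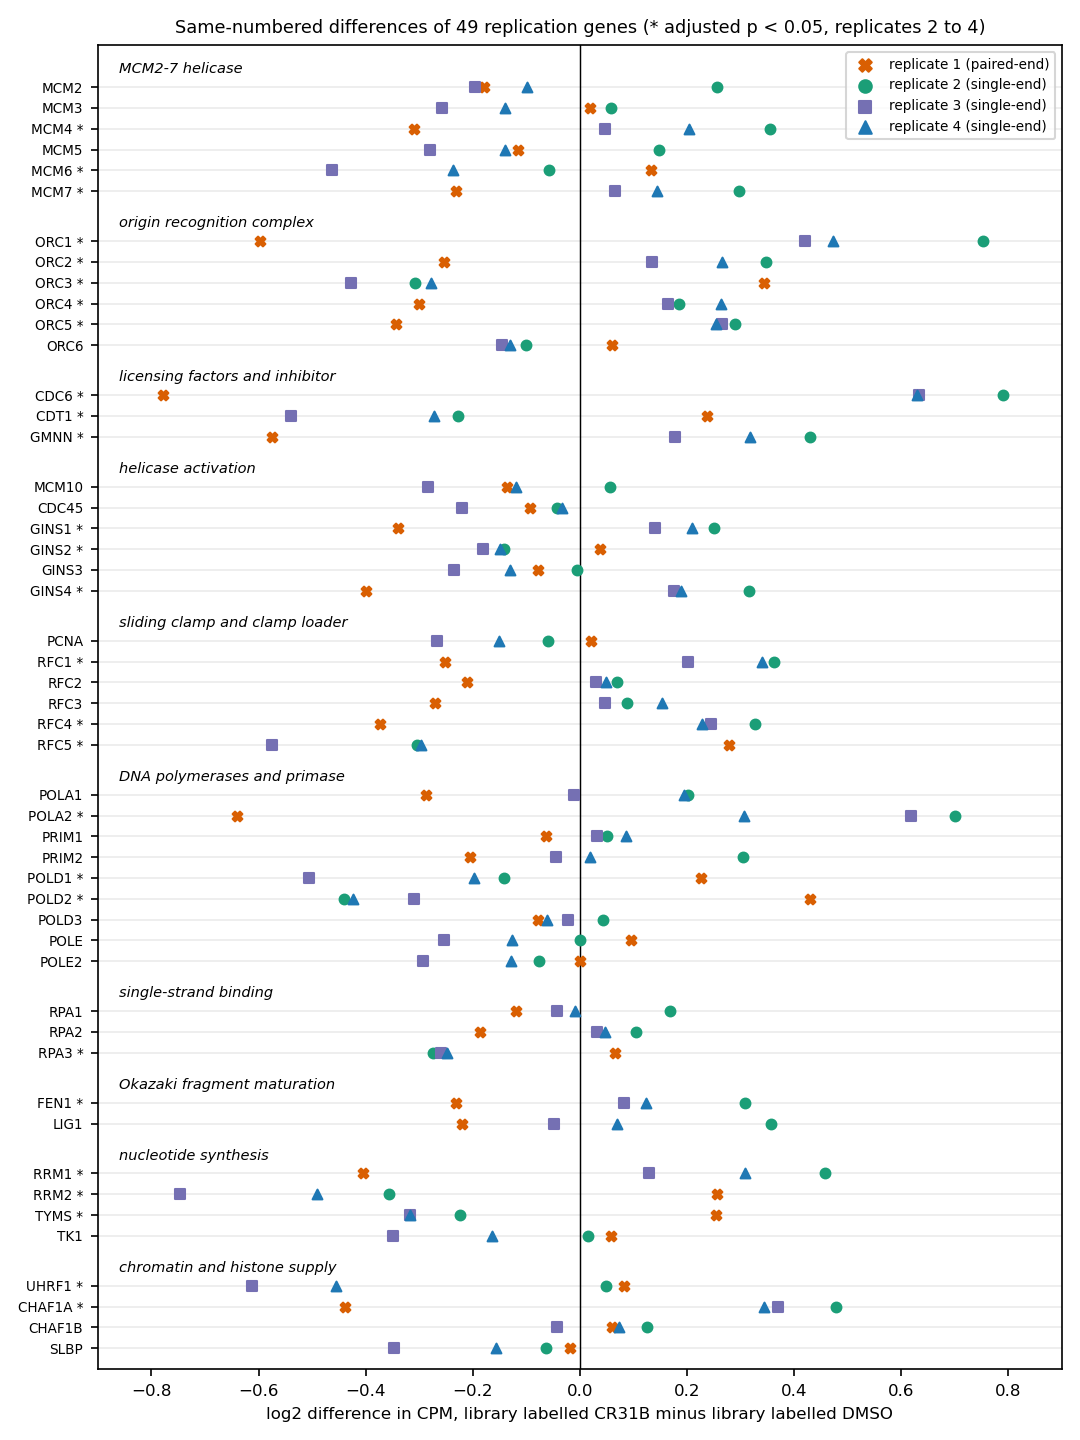
The log2 difference in CPM between same-numbered libraries, CR31B minus DMSO as labelled (x axis), for each of the 49 genes (y axis), grouped by role; crosses are replicate 1 and the other symbols replicates 2 to 4, and an asterisk marks an adjusted p below 0.05 in replicates 2 to 4. For CDC6 the replicate 1 cross lies at -0.78 and the other symbols between 0.63 and 0.79, and for POLD2 the cross lies at 0.43 and the others between -0.44 and -0.31.

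RefSeq (GRCh38.p14) gave promoter windows, from 250 bases before to 50 after the transcription start, for 43 of the 49 members. The E2F words TTTCCCGC, TTTCGCGC, TTTGCCGC and TTTGGCGC were searched on both strands, with overlapping matches counted separately. At least 1 stood in a window of 20 of 43 members (46.5%), against 3.99% of 27305 RefSeq genes. They were found in 5 of 14 members that rose, 6 of 10 that fell and 9 of 19 that did not pass the test, so members of each kind held them. The word CCAAT, also on both strands, stood in 26 of 43 members (60.5%) and in 39.7% of all genes. The words TTTGAA and TTCGAA, known from genes of the later cell cycle, stood in 2 of 43 members (4.65%) and in 19.5% of all genes. The stretches below, 2 from each kind of member, are shown so that the words can be read beside genes that rose, fell or did not pass the test, with E2F and CCAAT words on either strand in capitals. Each is read 5′ to 3′ on the strand of its gene, lies before a RefSeq start and holds no GENCODE 29 exon. GMNN, which rose, is at chr6:24775253-24775412 on the plus strand and has an E2F word that begins 80 bases before the start, between CCAAT words at 95 and 51. CHAF1A, which rose, is at chr19:4402420-4402639 on the plus strand and has no E2F word and 4 CCAAT words, of which 2 overlap. MCM6, which fell, is at chr2:135876444-135876613 on the minus strand and has 4 E2F words, as 2 overlapping pairs that begin at 152 and 90. UHRF1, which fell, is at chr19:4909974-4910143 on the plus strand and has an E2F word at 160. PCNA, which did not pass the test, is at chr20:5126627-5126785 on the minus strand and has an E2F word at 59 and 3 CCAAT words. POLA1, which did not pass the test either, is at chrX:24693768-24693917 on the plus strand and has an E2F word at 137. A match here describes letters in a window and is no evidence of binding.
GMNN: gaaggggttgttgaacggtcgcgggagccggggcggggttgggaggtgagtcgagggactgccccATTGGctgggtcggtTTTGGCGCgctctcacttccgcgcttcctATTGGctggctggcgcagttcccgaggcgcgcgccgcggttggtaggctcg
CHAF1A: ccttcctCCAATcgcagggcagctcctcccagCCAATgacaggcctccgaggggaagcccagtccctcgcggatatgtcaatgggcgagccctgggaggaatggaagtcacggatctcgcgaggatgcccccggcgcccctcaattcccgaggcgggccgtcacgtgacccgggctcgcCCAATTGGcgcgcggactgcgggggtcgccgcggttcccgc
MCM6: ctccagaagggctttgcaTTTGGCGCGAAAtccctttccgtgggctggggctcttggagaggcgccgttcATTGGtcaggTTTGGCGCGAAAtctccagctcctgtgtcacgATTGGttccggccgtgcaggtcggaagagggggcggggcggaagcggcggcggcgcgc
UHRF1: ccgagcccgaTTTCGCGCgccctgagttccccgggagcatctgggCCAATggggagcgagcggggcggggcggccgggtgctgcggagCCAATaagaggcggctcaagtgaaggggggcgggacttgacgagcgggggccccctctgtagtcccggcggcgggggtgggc
PCNA: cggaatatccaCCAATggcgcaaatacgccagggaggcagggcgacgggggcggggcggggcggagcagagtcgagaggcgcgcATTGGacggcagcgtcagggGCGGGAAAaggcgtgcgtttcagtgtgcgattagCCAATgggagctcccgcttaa
POLA1: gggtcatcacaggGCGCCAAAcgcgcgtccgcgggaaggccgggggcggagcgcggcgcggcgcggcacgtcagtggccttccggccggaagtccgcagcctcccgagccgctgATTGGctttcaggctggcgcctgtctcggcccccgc

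The factors that license origins gave the widest spread: CDC6 and GMNN rose and CDT1 fell. CDC6 (ENSG00000094804, chr17:40287633-40304657, plus strand, GRCh38), the ATPase that brings the helicase to the origin complex, measured 188, 186 and 183 CPM in CR31B replicates 2, 3 and 4 and 109, 120 and 118 CPM in the matching DMSO libraries. Replicate 1 ran the other way, with 111 CPM in the library labelled CR31B and 190 CPM in the one labelled DMSO. The groups of replicates 2 to 4 did not overlap, and the means were 186 ± 2.78 and 116 ± 5.99 CPM (SD, n = 3 each). Its log2 fold change was 0.68 ± 0.052 (SE), the highest among the members, with an adjusted p of 5.72e-06. CDT1 (ENSG00000167513, chr16:88803213-88809258, plus strand), the factor that works beside CDC6 to load MCM2-7, went down. It stood at 37.0, 30.5 and 35.0 CPM in CR31B replicates 2, 3 and 4 against 43.3, 44.3 and 42.3 CPM in DMSO, and at 45.6 and 38.6 CPM in replicate 1. Every CR31B library of replicates 2 to 4 lay below every DMSO library, for a log2 fold change of -0.34 ± 0.073 (adjusted p = 0.00365). GMNN (ENSG00000112312, chr6:24774931-24786099, plus strand), the inhibitor of CDT1, had 119, 102 and 112 CPM in CR31B replicates 2, 3 and 4 and 88.1, 90.3 and 89.5 CPM in DMSO. Replicate 1 gave 83.7 CPM under the CR31B label and 125 CPM under the DMSO label. Its rise of 0.31 ± 0.059 on the log2 scale had an adjusted p of 0.00187, with no overlap between the groups. The geminin promoter printed above held 1 E2F word, and the CDC6 window held 1, after its start.

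In the origin recognition complex, 4 of 6 subunits rose, 1 fell and 1 did not pass the test, with a median log2 change of 0.23. ORC1 (ENSG00000085840, chr1:52372829-52404459, minus strand), the subunit that is made and destroyed within each cycle, had 99.0, 99.1 and 95.4 CPM in CR31B replicates 2, 3 and 4 and 58.8, 74.1 and 68.8 CPM in DMSO. The library labelled CR31B replicate 1 had 61.9 CPM and its DMSO partner 93.5 CPM. The CR31B values lay close together and clear of the DMSO values, at a log2 fold change of 0.54 ± 0.076 (adjusted p = 0.000283). ORC5, a core subunit, had 37.7, 38.0 and 39.3 CPM with CR31B and 30.8, 31.6 and 33.0 CPM with DMSO in replicates 2, 3 and 4, and 33.0 and 41.9 CPM in replicate 1. This was a rise of 0.27 ± 0.055 (adjusted p = 0.00293). ORC3, another core subunit, was the exception in the complex. It had 28.9, 28.6 and 28.9 CPM with CR31B and 35.7, 38.4 and 35.1 CPM with DMSO, and 37.7 and 29.7 CPM in replicate 1, for a log2 fold change of -0.34 ± 0.058 (adjusted p = 0.00105). ORC2 rose by 0.25 and ORC4 by 0.21 (adjusted p = 0.00461 and 0.00819). With offsets for GC content and transcript length those values became 0.12 (adjusted p = 0.109) for ORC2 and -0.00078 (adjusted p = 0.993) for ORC4. Without replicate 4 their adjusted p was 0.062 and 0.114, and ORC2 also lost its call without replicate 2 (0.0527). Upper quartile scaling lowered ORC5 to 0.17, ORC2 to 0.15 and ORC4 to 0.11 (adjusted p = 0.0226, 0.0284 and 0.0646). ORC6, the smallest subunit, had a log2 fold change of -0.12 (adjusted p = 0.0682, or 0.0196 with the replicate block and 0.00258 under upper quartile scaling). With the GC and length offsets ORC6 stood at -0.06 (adjusted p = 0.384, or 0.195 with the block added).

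The 6 subunits of the MCM2-7 ring, the motor of the replicative helicase, did not move together: MCM4 and MCM7 rose, MCM6 fell and the other three did not pass the test. MCM2 had 280, 242 and 269 CPM in CR31B replicates 2, 3 and 4 and 235, 278 and 288 CPM in DMSO, with 259 and 294 CPM in replicate 1. These groups overlapped, and the log2 fold change was -0.01 ± 0.081 (adjusted p = 0.903). It was 0.26 in replicate 2 and -0.20 and -0.10 in replicates 3 and 4. MCM6, whose promoter with 4 E2F words is printed above, went from 238 ± 14.0 CPM in DMSO to 200 ± 16.9 CPM with CR31B in replicates 2 to 4 (SD, n = 3 each), a log2 change of -0.25 ± 0.07 (adjusted p = 0.0158). MCM4 went from 322 ± 19.5 to 371 ± 24 CPM, at 0.20 ± 0.065 (adjusted p = 0.0282), and MCM7 from 335 ± 15.4 to 376 ± 17.6 CPM, at 0.17 ± 0.056 (adjusted p = 0.0333). MCM3 stood at -0.11 and MCM5 at -0.09. None of these 3 calls was firm. MCM6 lost it without DMSO replicate 3 or 4 (adjusted p = 0.0523 and 0.0546). MCM4 lost it without CR31B replicate 2 or 4 or DMSO replicate 2 (adjusted p of 0.0773 to 0.108), and MCM7 without CR31B replicate 2 or 4 or DMSO replicate 2 or 3 (0.0688 to 0.125). With upper quartile scaling MCM4 was at 0.11 and MCM7 at 0.07 (adjusted p = 0.153 and 0.247), and the ring had 0 members higher and 3 lower. Total counts gave 0 higher and 2 lower. MCM4 also missed the threshold with the GC and length offsets (0.0891) and MCM7 with RLE scaling (0.0552), and without the pair of replicate 3 MCM6 was at -0.16.

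Of the 6 factors that turn the helicase on, 2 rose, 1 fell and 3 did not pass the test. CDC45, which binds the MCM ring together with GINS, had 75.2, 70.5 and 79.2 CPM in CR31B replicates 2, 3 and 4 against 77.5, 82.1 and 81.0 CPM in DMSO, and 77.7 and 82.9 CPM in replicate 1. It had the same sign in all 4 pairs, at -0.10 ± 0.056 (adjusted p = 0.196). Among the 4 GINS subunits, GINS1 rose by 0.20 (adjusted p = 0.00785) and GINS4 by 0.23 (adjusted p = 0.037), GINS2 fell by 0.16 (adjusted p = 0.0333) and GINS3 stood at -0.12 (adjusted p = 0.106). The subunits of a complex present in equal copies thus had log2 changes between -0.16 and 0.23. MCM10, a scaffold of the activated helicase, stood at -0.11 (adjusted p = 0.249). With the GC and length offsets MCM10 (-0.23, adjusted p = 0.0359) and GINS3 (-0.17, adjusted p = 0.0383) were called lower. GINS2 lost its call without any 1 of the 6 libraries (adjusted p of 0.0513 to 0.108). GINS4 lost it without CR31B replicate 3 or 4 or DMSO replicate 2 or 4 (0.0725 to 0.132), and GINS1 without the pair of replicate 2 or of replicate 4 (0.0512 and 0.0901). Under upper quartile scaling or total counts this group had 0 members higher and 4 lower. GINS1 and GINS4 then had adjusted p-values of 0.0856 and 0.227 under the former, 0.0547 and 0.183 under the latter, and 0.0506 and 0.0623 with the GC and length offsets, while GINS2 was at -0.25 under upper quartile scaling.

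**Figure D2:**
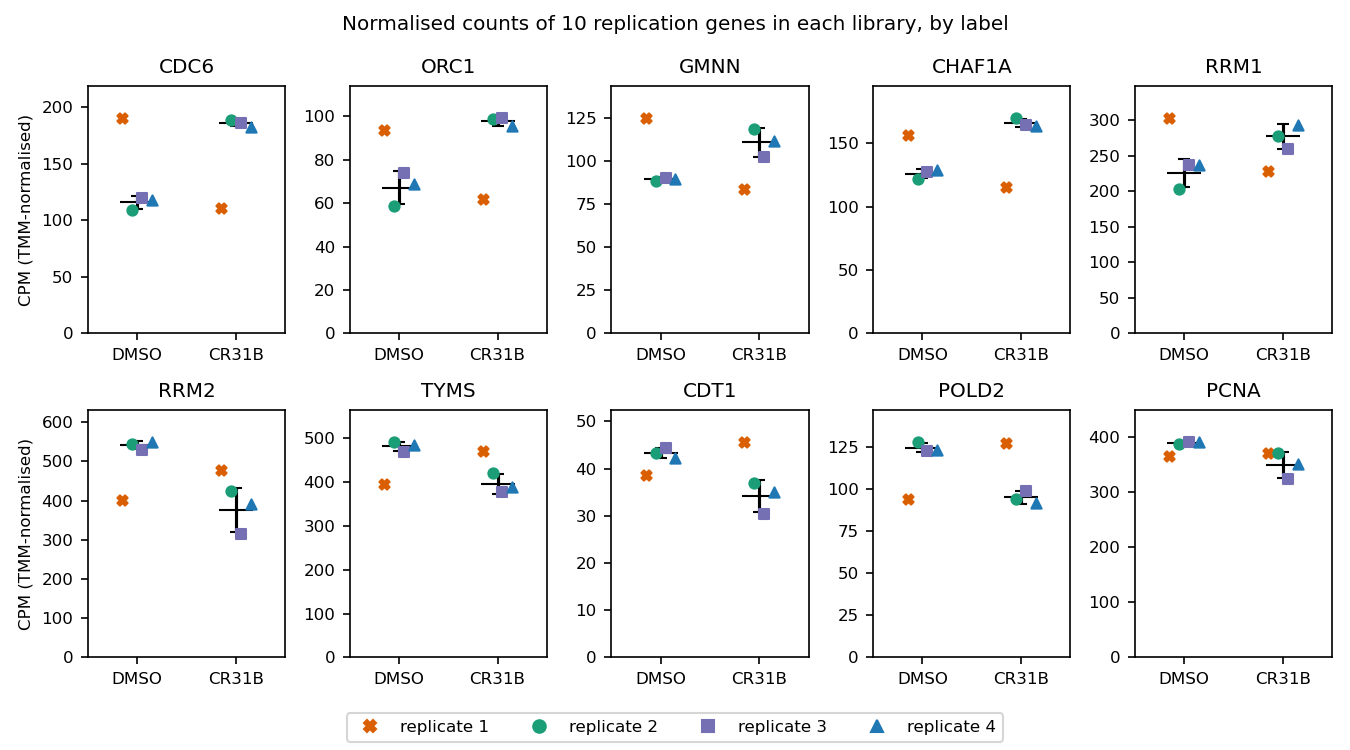
Normalised counts (CPM, y axis from 0) of 10 replication genes in each library, by label (x axis); symbols are replicates 1 to 4 and black bars the mean and SD of replicates 2 to 4. In CDC6, ORC1, GMNN, CHAF1A and RRM1 the replicate 1 cross is low under CR31B and high under DMSO, the reverse of the other 3 replicates, and in PCNA all 8 libraries lie between 325 and 391 CPM.

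The sliding clamp missed the threshold narrowly, while 2 of the 5 subunits of its loader rose and 1 fell. PCNA, the ring that tethers the polymerases to DNA, measured 372, 325 and 352 CPM in CR31B replicates 2, 3 and 4 and 388, 391 and 391 CPM in DMSO, with 371 and 365 CPM in replicate 1. The groups did not overlap but lay close, at a log2 fold change of -0.16 ± 0.057 (adjusted p = 0.0511). It was called lower with the replicate block (0.0135), by DESeq2 (0.0313), with RLE scaling (0.0462) and without the filter (0.0188). The same held under upper quartile scaling (0.00202) and total counts (0.00295). With the GC and length offsets PCNA was not called, at -0.072 (adjusted p = 0.385, or 0.195 with the block added). Nor was it called without CR31B replicate 3 or 4, or without DMSO replicate 2, 3 or 4. RFC1, the large subunit of the clamp loader, had 164, 151 and 169 CPM with CR31B and 128, 131 and 133 CPM with DMSO, and 142 and 169 CPM in replicate 1. It rose by 0.30 ± 0.054 (adjusted p = 0.00127), or by 0.17 with offsets for GC content and length (adjusted p = 0.0368). RFC5, a small subunit, fell. Its values were 84.7, 66.6 and 81.8 CPM with CR31B and 105, 99.2 and 100.4 CPM with DMSO, and 102 and 84.0 CPM in replicate 1, for a log2 fold change of -0.38 ± 0.081 (adjusted p = 0.00363). RFC4 rose by 0.27 (adjusted p = 0.00109), or by 0.17 under upper quartile scaling. RFC2 and RFC3 stood at 0.05 and 0.10 without passing the test. With the GC and length offsets RFC2 was called higher (0.13, adjusted p = 0.0458), and under upper quartile scaling it stood at -0.045 (adjusted p = 0.412). Of the exonic bases of RFC5, 10.6% lie opposite WSB2 and AC131159.2 on the other strand.

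Among the 9 genes of the replicative polymerases, POLA2 rose, POLD1 and POLD2 fell, and 6 did not pass the test. POLA1, the catalytic subunit of polymerase alpha, had 76.1, 66.7 and 80.7 CPM in CR31B replicates 2, 3 and 4 and 66.2, 67.3 and 70.5 CPM in DMSO, with 74.0 and 90.4 CPM in replicate 1. The groups overlapped at 0.13 ± 0.07 (adjusted p = 0.153). POLA2, its regulatory subunit, had by far the lowest level per length of the 49, at 0.65 RPKM (CPM per kilobase of exon) in DMSO. It measured 5.6, 5.56 and 5.09 CPM with CR31B and 3.44, 3.61 and 4.11 CPM with DMSO, and 3.42 and 5.34 CPM in replicate 1, a log2 fold change of 0.55 ± 0.11 (adjusted p = 0.00315). This value is uncertain, since 35.1% of the exonic bases of POLA2 are shared with AP000944.2 on the same strand. POLD2 (ENSG00000106628, chr7:44114681-44124358, minus strand), an accessory subunit of polymerase delta, fell. It had 94.0, 98.8 and 91.7 CPM with CR31B and 128, 122 and 123 CPM with DMSO, and 127 and 94.2 CPM in replicate 1, which gave -0.39 ± 0.049 (adjusted p = 0.000141). POLD1, the catalytic subunit of the same enzyme, had 51.0, 44.1 and 54.9 CPM with CR31B and 56.3, 62.6 and 63.0 CPM with DMSO, and 65.2 and 55.7 CPM in replicate 1. Its change of -0.28 ± 0.081 (adjusted p = 0.0191) lost its call without DMSO replicate 3 or 4 (adjusted p = 0.0525 and 0.0681), and was -0.18 without the pair of replicate 3. POLD3 stood at -0.01, the primase subunits PRIM1 and PRIM2 at 0.06 and 0.09, and POLE and POLE2 of polymerase epsilon at -0.12 and -0.16. POLE2 had an adjusted p of 0.101, or 0.0419 with the replicate block and 0.0122 under upper quartile scaling. Under that scaling 1 of the 9 genes was higher and 4 lower. With the GC and length offsets POLE2 had an adjusted p of 0.272, or 0.137 with the block added. POLE was called lower with those offsets (-0.25, adjusted p = 0.0143) and under upper quartile scaling (adjusted p = 0.0168).

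Of the 3 subunits of RPA, which coats single-stranded DNA, the smallest fell and the other two did not pass the test. RPA1, the largest subunit, measured 165, 155 and 164 CPM in CR31B replicates 2, 3 and 4 and 146, 160 and 165 CPM in DMSO, and 159 and 173 CPM in replicate 1. Its groups overlapped (0.04 ± 0.057, adjusted p = 0.614). RPA3 went from 40.4 ± 1.84 CPM in DMSO to 33.7 ± 1.24 CPM with CR31B in replicates 2 to 4 (SD, n = 3 each). Its log2 fold change was -0.26 ± 0.059 (adjusted p = 0.00531). RPA2 stood at 0.06 (adjusted p = 0.314). With the GC and length offsets RPA2 was called higher (0.13, adjusted p = 0.0483), and under upper quartile scaling it stood at -0.033 (adjusted p = 0.583). FEN1, the flap nuclease that trims Okazaki fragments, had 229, 207 and 221 CPM with CR31B and 185, 195 and 203 CPM with DMSO, and 181 and 213 CPM in replicate 1. Its rise of 0.17 ± 0.057 (adjusted p = 0.0329) lost its call without CR31B replicate 2 or 4 or DMSO replicate 2 or 3 (adjusted p of 0.0857 to 0.123). It also missed the threshold with RLE scaling (0.0546), under upper quartile scaling (0.08, adjusted p = 0.241) and under total counts (0.09, adjusted p = 0.152). LIG1, the ligase that seals the trimmed fragments, had 77.6, 70.8 and 74.8 CPM with CR31B against 60.6, 73.2 and 71.4 CPM with DMSO, and 67.8 and 79.0 CPM in replicate 1. Its groups overlapped at 0.12 ± 0.073 (adjusted p = 0.207).

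The 4 enzymes of deoxynucleotide supply held both subunits of ribonucleotide reductase, which moved in opposite directions. RRM2 (ENSG00000171848, chr2:10120698-10131419, plus strand), the small subunit whose level follows S phase, had 425, 316 and 390 CPM in CR31B replicates 2, 3 and 4 and 545, 530 and 549 CPM in DMSO. Replicate 1 gave 479 CPM under the CR31B label and 401 CPM under the DMSO label. The means of replicates 2 to 4 were 377 ± 56.0 and 541 ± 9.85 CPM (SD, n = 3 each), the largest fall among the members, at -0.52 ± 0.092 (adjusted p = 0.0012). RRM1 (ENSG00000167325, chr11:4094707-4138876, plus strand), the large subunit, had 279, 259 and 294 CPM with CR31B and 203, 237 and 238 CPM with DMSO, and 229 and 303 CPM in replicate 1. It rose by 0.30 ± 0.072 (adjusted p = 0.00747). TYMS, thymidylate synthase, had 420, 377 and 389 CPM with CR31B and 491, 470 and 485 CPM with DMSO, and 471 and 395 CPM in replicate 1, a fall to 0.822 of the DMSO level (-0.28 ± 0.055, adjusted p = 0.00214). TK1, thymidine kinase of the salvage route, had 87.0, 69.7 and 77.5 CPM with CR31B and 86.2, 88.7 and 86.8 CPM with DMSO, and 83.0 and 79.7 CPM in replicate 1. Its groups overlapped at -0.16 ± 0.073 (adjusted p = 0.109). It was called lower with the replicate block (0.0461), without the filter (0.0303), under upper quartile scaling (0.0114) and under total counts (0.0163). TK1 was not called by DESeq2, with RLE scaling or with the GC and length offsets (adjusted p = 0.295, or 0.167 with the block added). Without the pair of replicate 4 the adjusted p was 0.0538 for RRM1 and 0.052 for TYMS. RRM2 shares 20.2% of its exonic bases with AC007240.1 on the same strand, and 46.6% of those of TYMS lie opposite ENOSF1 and TYMSOS, whose reads cannot be told apart from its own if counting ignored strand.

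Of the 4 genes that restore chromatin behind the fork, CHAF1A rose, UHRF1 fell and CHAF1B and SLBP did not pass the test. CHAF1A (ENSG00000167670, chr19:4402662-4445018, plus strand), the large subunit of the histone chaperone CAF-1, measured 170, 165 and 164 CPM in CR31B replicates 2, 3 and 4 and 122, 128 and 129 CPM in DMSO. The library labelled CR31B replicate 1 had 116 CPM and its DMSO partner 157 CPM. The groups were far apart for their spread, at 0.40 ± 0.047 (adjusted p = 9.18e-05). CHAF1B, its partner subunit, stood at 0.05 (adjusted p = 0.453). UHRF1, which brings the maintenance methyltransferase to new DNA, had 101, 71.8 and 84.4 CPM with CR31B and 98.1, 110 and 116 CPM with DMSO, and 103 and 97.4 CPM in replicate 1. It was the only called member whose groups overlapped, and its replicate 2 difference was 0.05 against -0.61 and -0.46 in replicates 3 and 4. Its fall (-0.33 ± 0.11, adjusted p = 0.0347) lost its call without CR31B replicate 3 or 4 or DMSO replicate 3 or 4 (adjusted p of 0.0748 to 0.123), and was -0.21 without CR31B replicate 3. SLBP, the protein that binds histone messenger RNAs, had 135, 112 and 131 CPM with CR31B and 141, 142 and 146 CPM with DMSO, and 130 and 132 CPM in replicate 1. Its groups did not overlap, at -0.18 ± 0.068 (adjusted p = 0.0545). It was called lower with the replicate block (0.0136), by DESeq2 (0.0324), with RLE scaling (0.0486) and without the filter (0.00678). The same held under upper quartile scaling (0.00332) and total counts (0.00437). With the GC and length offsets SLBP was not called, at -0.12 (adjusted p = 0.227, or 0.0701 with the block added). Nor was it called without CR31B replicate 3 or 4, or without DMSO replicate 2, 3 or 4.

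The replicates 2, 3 and 4 were not equal in these genes. In replicate 2 the median log2 difference of the 49 was 0.09, in replicate 3 it was -0.04 and in replicate 4 it was -0.01, while the medians over all genes were 0.00021, -0.01 and 0.01. Replicate 3 gave the lowest of the 3 differences in 40 of 49 members, against 36.8% of all genes. Replicate 2 gave the highest in 41, for which no share of all genes is given. The library CR31B replicate 3 was the lowest of its 3 in 35 of 49 members and in 40.2% of all genes. MCM2, TK1 and UHRF1, described above, are members whose sign differed between these replicates. Of all 49 members 37 had 1 sign in all 3, a count given without a share of all genes. Among the 27 called members it was 26, with UHRF1 as the exception. Since these were called from the same 3 replicates, their agreement in sign is no separate support. Groups of replicates 2 to 4 did not overlap in 33 members, 18 higher and 15 lower, against a background of 52.1% of all genes, 27.7% higher and 24.4% lower.

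Replicate 1 reversed every call of the members, as it did nearly every call of the whole table. All 27 called members had the opposite sign there, against 98.9% of all called genes. The median difference of the 49 in replicate 1 was -0.12, against 0.01 over all genes. A test of the treatment difference in replicate 1 against that in replicates 2 to 4 (treatment by layout interaction, edgeR) passed for 28 of 49 members, against a background of 42.5% of 16518 genes, 18.4% above and 24.1% below. The largest interaction was in CDC6, where the difference was -0.78 in replicate 1 and 0.68 in the others (interaction -1.46, adjusted p = 4.12e-06). CHAF1A followed in adjusted p (-0.84, adjusted p = 6.84e-05), then POLD2 with the opposite sign (0.82, adjusted p = 0.000102), GMNN (-0.89, adjusted p = 0.000209) and ORC1 (-1.14, adjusted p = 0.00022). Since replicate 1 holds 1 library per group, the spread in this test comes from replicates 2 to 4. Layout, an exchange of the labels of the 2 libraries and any other feature of replicate 1 cannot be told apart here, so each replicate 1 value, this test and the fit of all 8 libraries hold only for the labels as given. With all 8 libraries as labelled and a term for layout, no member passed (lowest adjusted p = 0.707) and the background was 0.0% of 16518 genes by edgeR. DESeq2 also called no member. At an unadjusted p below 0.05 there were 0 members and 205 genes. The log2 fold changes of the members then lay between -0.33 for RRM2 and 0.33 for CDC6. Without replicate 1 the same fit called 27 members, without its CR31B library alone 29, and without its DMSO library alone 27. In the last 2 fits the layout term takes up the remaining replicate 1 library. Their treatment term therefore rests on replicates 2 to 4, and they are not separate results.

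**Figure D3:**
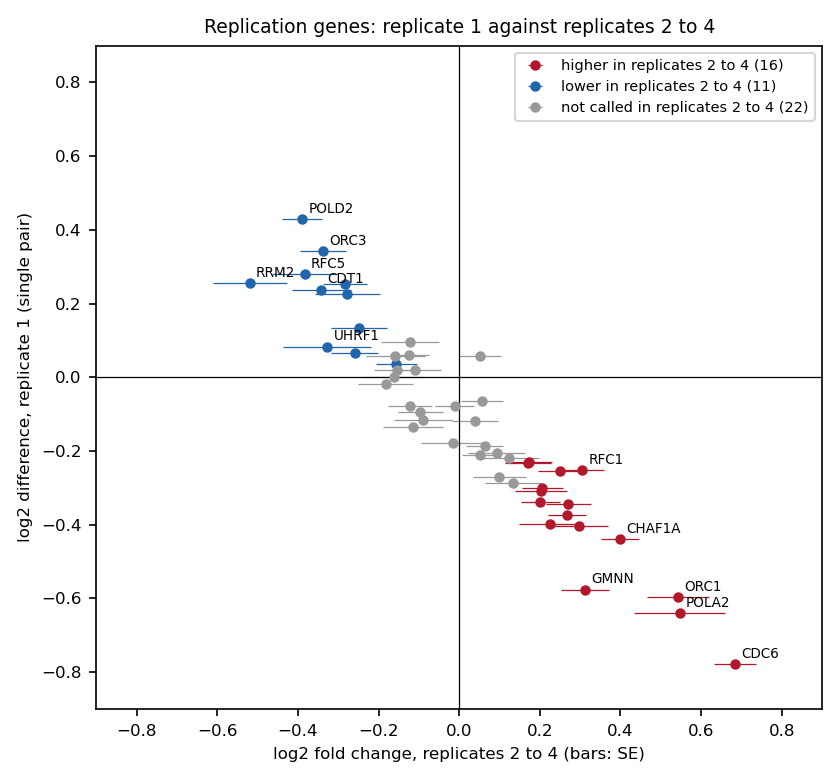
Each point is 1 of the 49 genes, with its log2 fold change in replicates 2 to 4 on the x axis (bars are the SE) and its log2 difference in replicate 1 on the y axis, coloured by the call in replicates 2 to 4. The points that rose lie below the horizontal zero line and those that fell above it, from CDC6 at 0.68 and -0.78 to RRM2 at -0.52 and 0.26.

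Levels per length spanned a wide range in DMSO replicates 2 to 4. PCNA was highest at 265 ± 1.30 RPKM (SD, n = 3), followed by TYMS at 195 ± 4.40 and RRM2 at 102 ± 1.85, and these 3 did not overlap. FEN1 at 78.4 ± 3.68, MCM3 at 76.6 ± 4.56, MCM7 at 76.3 ± 3.52 and RFC3 at 74.4 ± 3.83 came next, each within 1 SD of its neighbour in this order. At the low end stood POLE at 7.17 ± 0.279, GINS4 at 6.17 ± 0.60 and POLA2 at 0.65 ± 0.0602, and the median of the 49 was 22.9. Length here counts all annotated exons of a gene, 16609 bases for POLE. Before division by length POLE had 119 CPM, above the member median of 101 CPM. The POLA2 level is uncertain for the shared exonic bases given above. Members that rose and fell had similar median levels, 23.8 and 21.0 RPKM. Pseudogenes named after a member exist for 8 of them, among them 3 each for PCNA, RRM2 and RPA2, and none of these exceeded 0.305 CPM in any library.

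Features of the transcripts are given for members that rose and fell as medians, and no difference between them was tested. Median GC content of the longest transcript was 45.5% in the 16 that rose, 49.1% in the 11 that fell and 48.0% over all genes tested. The median 5′ leader of the principal transcript was 234.5 bases in those that rose and 139 in those that fell, against 210 over 12725 genes. Leader GC content had medians of 62.6% and 60.0%, below 66.5% over all genes, and the longest purine run had medians of 8 and 9 bases, against 8. Purine runs were counted because rocaglates clamp eIF4A on them. The 49 genes share libraries and are not independent replicates. Across them the log2 fold change had a Pearson r of -0.20 with GC content, 0.17 with log2 exonic length and 0.13 with log2 leader length. The r was 0.10 with leader GC content and 0.12 with the longest purine run. The matching Spearman rho values were -0.24, 0.25, 0.12, 0.05 and 0.10.

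The rest of the replication pathway was read from 90 further genes, of which 89 were tested (POLD4 did not pass the filter), and 29 rose and 21 fell in replicates 2 to 4, where 23.8% and 17.6% of all genes did. Under upper quartile scaling 20 were higher and 34 lower, where 18.0% and 27.0% of all genes were. Total counts gave 22 and 34, where 19.1% and 25.1% of all genes were higher and lower. Among 37 tested replication factors outside the set, 16 rose and 8 fell, with a median log2 change of 0.14. Under upper quartile scaling these were 10 and 11 with a median of 0.04, and under total counts 12 and 11. PRIMPOL, a primase that restarts stalled forks, rose by 0.78 ± 0.10 (adjusted p = 0.000178). EXO1, an exonuclease, went from 199 ± 1.22 to 334 ± 4.62 CPM (0.75 ± 0.045, adjusted p = 1.67e-06). RIF1, a regulator of origin timing, rose by 0.65 (0.35 with the GC and length offsets), and SUPT16H, a subunit of the histone chaperone FACT, by 0.56. POLE4 of polymerase epsilon fell by 0.53, TICRR, which helps load CDC45, by 0.40 and the PCNA-binding factor PCLAF by 0.32. RNASEH2A fell by 0.64 but was near the floor, at 0.99 against 1.55 CPM, and THSD8 covers 30.8% of its exonic bases. PCLAF shares 28.8% with AC087632.1.

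Of 35 nucleotide enzymes outside the set, 7 rose and 12 fell, where 23.8% and 17.6% of all genes did. Their median log2 change was -0.11, against -0.01 over all genes. Under upper quartile scaling or total counts 6 were higher and 21 lower. Of all genes 18.0% were then higher and 27.0% lower under the former, and 19.1% and 25.1% under the latter. The median of all genes fell to -0.10 and -0.08. SHMT2, the mitochondrial serine hydroxymethyltransferase that feeds one-carbon units into purine and thymidylate synthesis, went from 113 ± 3.20 to 193 ± 16.8 CPM (0.77 ± 0.065, adjusted p = 9.9e-06). CTPS2, a CTP synthase, rose by 0.41, and GART and PPAT of purine synthesis by 0.39 and 0.34, the latter by 0.20 with the offsets. ATIC, the last enzyme of the same purine route, went from 138 ± 5.16 to 104 ± 7.50 CPM (-0.40 ± 0.061, adjusted p = 0.000465). IMPDH1, on the branch to GMP, fell by 0.36, UMPS of pyrimidine synthesis by 0.33 and the kinase CMPK1 by 0.31. Without the pair of replicate 4, CTPS2, UMPS and CMPK1 lost their calls, as did RNASEH2A. Without that pair 10 of the 89 genes were called lower in place of 21, and no share of all genes is given for that setting.

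Among 17 chromatin genes that act at the fork, 6 rose and 1 fell, where 23.8% and 17.6% of all genes did. Upper quartile scaling or total counts gave 4 and 2, where 18.0% and 27.0%, or 19.1% and 25.1%, of all genes were higher and lower. USP7, a deubiquitinase of UHRF1 and its partner methyltransferase, went from 234 ± 9.31 to 374 ± 16.2 CPM (0.68 ± 0.054, adjusted p = 6.99e-06). RBBP7, a histone-binding protein, rose from 145 ± 4.85 to 202 ± 2.80 CPM (0.48 ± 0.048), the histone chaperone ASF1A by 0.39 and MMS22L, which acts at stalled forks, by 0.28. MMS22L lost its call with the offsets for GC content and length (0.05, adjusted p = 0.504). RBBP4, a subunit of CAF-1 beside CHAF1A and CHAF1B, fell by 0.31 ± 0.054 (adjusted p = 0.00112), or by 0.51 with the offsets. The 3 subunits of CAF-1 were thus 1 higher, 1 lower and 1 that did not pass the test.

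**Figure D4:**
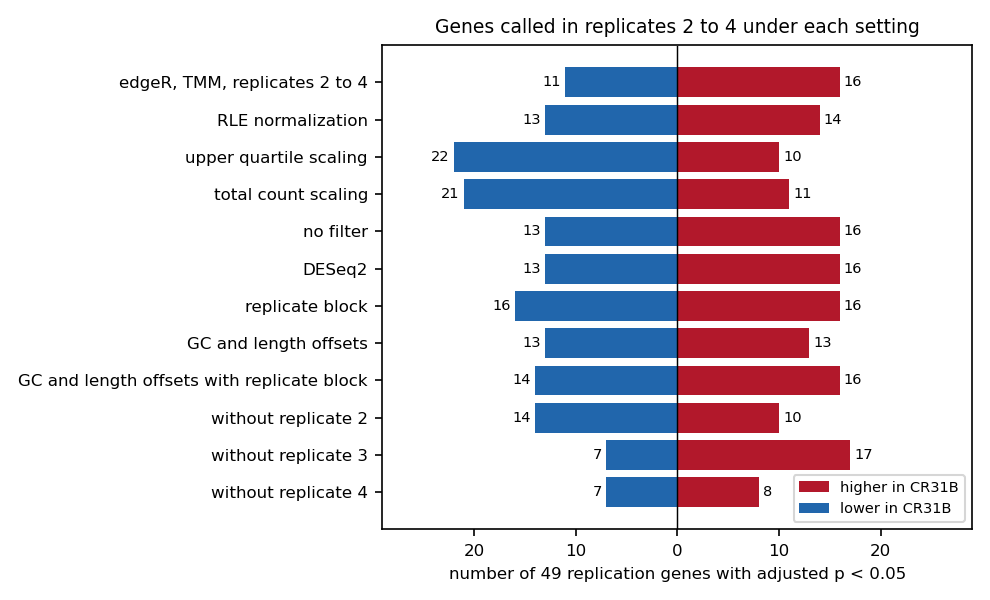
The number of the 49 genes with an adjusted p below 0.05 in replicates 2 to 4 (x axis), higher in CR31B to the right and lower to the left, under each setting (y axis). The first bar has 16 higher and 11 lower, upper quartile scaling gives 10 and 22, the replicate block 16 and 16, and leaving out replicate 4 gives 8 and 7. Leaving out a pair leaves 2 libraries per group. No share of all genes is given for it, so its counts cannot be read as particular to the members.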

How the data were processed

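Poly(A) RNA of IMR32 cells was sequenced for 75 cycles in 8 libraries, 4 with CR31B and 4 with DMSO. The kit that the labels give is one for small RNA. The authors deposited 1 table of raw read counts per Ensembl gene; each column was matched to 1 sample by its title, which for CR31B replicate 4 is written without its initial letter. The submitters' processing notes name FastQC 0.11.7, STAR 2.7.2b, edgeR 3.36.0, limma 3.50.3 and GRCh38 without their roles. The counting tool, its strand setting and the annotation are not given in the sources used here, so overlapping and antisense genes may share reads.

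Identifiers were matched to GENCODE 29 (58515 of 58787). Counts were fitted over the whole table in R 4.3.3 with edgeR 4.0.16 (filterByExpr, TMM, glmQLFit and glmQLFTest, Benjamini-Hochberg over all genes tested). Fits were replicates 2 to 4 by treatment, all 8 libraries by layout and treatment, and the treatment by layout interaction. SE is the absolute log2 fold change over the root of F. Differences within a pair are on log2 CPM (prior count 1). The labels give no culture for each number, so p-values measure the spread between these libraries. Same-numbered libraries deviated together in replicates 2 to 4 (correlations 0.208, 0.388 and 0.157), which is taken from the data and the shared numbers, and the fit with a replicate block is given where it changes a call. No 2 libraries agreed within counting noise: the smallest mean chi-square was 7.28 per gene. Simulated data had 100 genes each at 1.5-fold and 2-fold. The fit of replicates 2 to 4 recovered 100% of both over 16527 genes, with 15 false calls among 215. The fit of 8 libraries recovered 100% over 16384 genes, with 7 among 207. The simulation used 1 spread for all genes, no pair or layout effect and no reversed replicate 1. It held no change below 1.5-fold, a size that only CDC6 passed among the members, so its recovery does not cover the other calls.

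Alternatives were RLE, upper quartile and total count scaling, no filter, DESeq2 1.42.0, the replicate block, loess offsets for GC content and length, and leaving out each library; leaving out both libraries of a number was added after seeing the data. The members, the lists of other genes and the markers were chosen with earlier results of these data known. Per-library values are given for up to 8 called members per direction with the largest change and for 17 members named for their role, and for each other list up to 4 called genes per direction. Promoters are from RefSeq (GRCh38.p14).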

Additional observations from a re-analysis of the deposited data

Results flagged for a closer look

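In 25 members given by library, each group of 4 libraries was checked for 1 library far from the others (its distance from the next value as a share of the group's range, against Dixon's 95% critical value). Of 50 groups 10 passed. Chance flags about 1 in 20 independent groups, but these groups share 8 libraries and many genes were named for their change in replicates 2 to 4, so the number has no fair chance level. In every one of the 10 the library apart was replicate 1. The ratios were 0.929 for CDC6 in the CR31B group and 0.863 in DMSO, 0.9 for ORC1, 0.886 for CHAF1A and 0.962 for ORC3 in CR31B. In the DMSO group they were 0.941 for GMNN, 0.863 for RFC1, 0.873 for RRM2, 0.848 for POLD2 and 0.864 for PCNA. For PCNA the 3 other DMSO libraries lay between 388 and 391 CPM and replicate 1 at 365 CPM, a small gap on the CPM scale.

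The CR31B difference in replicate 1 differed from that in replicates 2 to 4 in 28 of the 49 members, by the interaction test of edgeR, against 42.5% of all genes. The cause was not tested.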

How the results depend on the processing

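In replicates 2 to 4 the 27 calls kept direction and call in 385 of 459 alternative values, lost the call in 72 and changed sign in 2. The 2 were ORC4 with offsets for GC content and length, at -0.00078, and at -0.0014 with those offsets and the replicate block. No matching counts over all genes are given. Same-numbered pairing added calls and lost none: the replicate block gave 16 higher and 16 lower, adding ORC6, PCNA, POLE2, TK1 and SLBP, and changed no other call of the 49, and it gave 33 higher and 26 lower among the other pathway genes. Among all genes the block raised the called share to 51.1%. With the GC and length offsets, with or without the block, ORC6, PCNA, POLE2, TK1 and SLBP were not called. Under those offsets RFC2 and RPA2 were called higher, and MCM10, GINS3 and POLE lower. With upper quartile scaling 10 members were higher and 22 lower, with total counts 21 lower, and 34 other pathway genes were lower under either. The median of all genes then moved from -0.01 to -0.10 and -0.08. Leaving out libraries gave 8 to 17 members higher and 7 to 14 lower (the fewest higher and 7 lower without replicate 4, and 10 higher without replicate 2). Of the other genes 20 to 34 were higher and 10 to 22 lower. The interaction held 23 to 30 members. The fit of all 8 libraries held 0 to 29, and without either replicate 1 library its treatment term rests on replicates 2 to 4. No share of all genes is given with libraries left out, so these counts cannot be read as particular to the members. The cause was not tested.

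Values that changed sign were all small. Under upper quartile scaling they were -0.045 for RFC2, -0.039 for PRIM1, -0.0032 for PRIM2, -0.057 for RPA1, -0.033 for RPA2 and -0.044 for CHAF1B, and under total counts -0.028, -0.021, -0.0396, -0.016 and -0.027 for the same genes without PRIM2. GC and length offsets gave -0.013 for POLA1, -0.016 for RPA1 and -0.0029 for CHAF1B, or with the block -0.018, -0.015 and -0.0033. Leaving out libraries moved MCM2 between -0.14 and 0.062 (above 0 without CR31B replicate 3, DMSO replicate 3 or 4, or the pair of replicate 3 or 4), POLD3 between -0.041 and 0.014 (above 0 without CR31B replicate 4 or its pair), RPA1 between -0.024 and 0.083 (below 0 without DMSO replicate 2 or its pair) and PRIM2 between -0.012 and 0.15 (below 0 without the pair of replicate 2). Where a setting leaves 2 libraries in a group, their spread comes from the fit across genes.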
